A study of Mus musculus with 6 samples.

Results

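Ovaries of mice labelled 65 weeks old were compared with ovaries of mice labelled 8 weeks old, both after PBS alone, in 4 of the 6 libraries of an mRNA sequencing series. The 4 libraries were chosen by their labels, 2 in each group, and are called young 1, young 2, old 1 and old 2 here. Every mouse was a wild type BDF1 animal, a hybrid laboratory strain, and PBS was injected into the abdomen over 7 days. The study used 20 mice of 8 weeks and 40 mice of 65 weeks. How many animals stand behind a library, and which, is not in the labels, and the spread that p-values rest on may therefore be technical. The remaining 2 libraries carry the label of 65-week-old mice given MIT-001 at 0.5 mg/kg, a compound that removes reactive oxygen species in mitochondria. They entered the model to lend their spread, and no comparison with them was tested here. Their values are given only for the called genes and in the last section. The comparison addresses what differs between the ages in an ovary that received no compound.

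The ovary is built from follicles, each of which holds an oocyte surrounded by granulosa cells. Theca cells outside the follicle make androgens, granulosa cells convert these to oestrogen, and after ovulation the follicle's remnant becomes a corpus luteum that makes progesterone. Oocytes are not replaced in adult life and their number falls with age. Macrophages, multinucleated giant cells and other immune cells are known to build up in the ovaries of old mice.

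The values went against the age labels. All 25 oocyte genes listed and 14 of 16 granulosa genes had a positive fold change in the libraries labelled old, as did 69.8% of all genes tested. In contrast to that share, 11 of 13 macrophage genes and all 9 tested genes of MHC class II had a negative one. Groups are therefore named as labelled throughout, and each direction holds for the libraries as labelled. Whether the labels of the young PBS and old PBS groups were exchanged, which would turn every direction, was not tested. Nor was an exchange with the MIT-001 group or of single libraries, which would change the comparison in other ways. Between 14347 and 15529 genes per PBS library reached 1 TPM (an abundance scaled for transcript length and for the total of the library). An estimated 6.61 to 7.14 gigabases of reads were aligned per PBS library. The young libraries differed more from each other than the old ones: their log2 values correlated at 0.911 across 15490 genes, against 0.973 for the old pair and 0.937 for young 1 with old 1. A total of 3326 genes differed by more than 2-fold between young 1 and young 2, 676 between old 1 and old 2, and 1984 between the group means. Young 2 stood apart by low oocyte genes, with a summed 117 TPM against 643, 997 and 1039 TPM in young 1, old 1 and old 2. The oocyte list's median log2 fold change was 1.94 with all libraries and 0.66 without young 2. Young 1 stood apart by immunoglobulin genes, at 2911 TPM in sum against 498, 42.5 and 45.4 TPM in young 2, old 1 and old 2. Median fold changes of gene lists are followed by the value without a PBS library wherever leaving it out turned the sign or moved the median by more than 1.5 times.

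Of 15490 genes tested, 6 passed limma's test at an adjusted p below 0.05, which is 0.0387% of the table. The 2 genes that rose (0.0129%) were Inhba and Trib2, and the 4 that fell (0.0258%) were H2-Eb1, C1qa, C1qc and Igha. Inhba encodes the beta A subunit shared by activin A and inhibin A, hormones of granulosa cells. It stood at 11.8 and 8.66 TPM in the young libraries and at 174 and 335 TPM in the old ones, a log2 fold change of 4.44 ± 0.35 (SE, adjusted p = 0.0408). Trib2, a pseudokinase that acts as a scaffold for protein degradation, stood at 41.1 and 34.0 TPM and at 198 and 192 TPM in the same order (log2 fold change 2.35 ± 0.19, adjusted p = 0.0408). Neither gene's groups overlapped, and the values of Trib2 were close to each other within both groups.

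H2-Eb1, a beta chain of MHC class II that presents peptides to helper T cells, stood at 83.4 and 104 TPM in the young libraries and at 1.39 and 1.53 TPM in the old ones. Its log2 fold change was -5.26 ± 0.23 (adjusted p = 0.00512), which is 38.3-fold lower on the scale of TPM + 1. C1qa, a chain of the complement protein C1q, stood at 238 and 253 TPM and at 36.1 and 42.9 TPM (log2 fold change -2.61 ± 0.20, adjusted p = 0.0408). C1qc, another chain of C1q, stood at 215 and 178 TPM and at 30.2 and 35.6 TPM (log2 fold change -2.54 ± 0.20, adjusted p = 0.0408). Igha, the constant region of immunoglobulin A, stood at 59.7 and 65.4 TPM and at 1.54 and 2.60 TPM (log2 fold change -4.39 ± 0.32, adjusted p = 0.0408). For all 4 genes both young libraries were far above both old ones, also for Igha, although most other immunoglobulin genes were much higher in young 1 than in young 2.

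The calls depended on which libraries were in the model. All 6 genes passed without young 1, among 1300 genes in all, and 4 of them passed without young 2, where Inhba and Igha had adjusted p-values of 0.0523 and 0.0523. None passed without either old library or with the 4 PBS libraries alone, although the log2 fold change of H2-Eb1 stayed between -5.42 and -5.10 and that of Inhba between 3.97 and 4.91 whichever PBS library was left out. In mm10 coordinates the 2 genes that rose are Inhba (Gene ID 16323, chr13:16004256-16031609, plus strand) and Trib2 (217410, chr12:15791725-15816962, minus strand). Those that fell are H2-Eb1 (14969, chr17:34305867-34316674, plus strand), Igha (238447, chr12:113256204-113260236, minus strand), C1qa (12259, chr4:136895916-136898844, minus strand) and its neighbour C1qc (12262, chr4:136889801-136892936, minus strand).

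**Figure D1:**
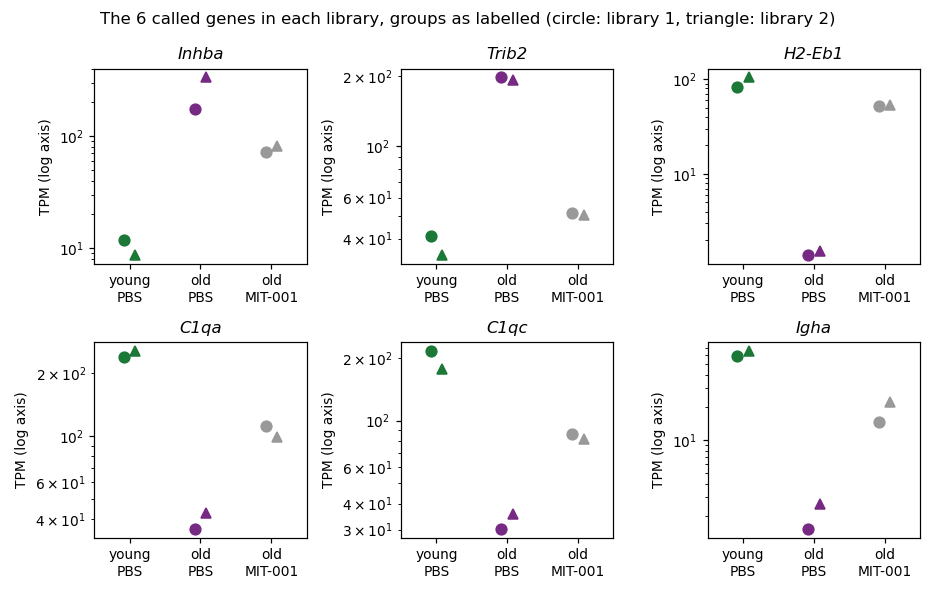
TPM of the 6 called genes on logarithmic axes in each library, with circles for library 1 and triangles for library 2 of each labelled group. H2-Eb1 lies at 83.4 and 104 TPM in the young libraries and at 1.39 and 1.53 TPM in the old ones, and the libraries labelled MIT-001 lie between the PBS groups for each gene.

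A total of 2990 genes, the 6 called ones included, had an unadjusted p below 0.05, which is 19.3% of those tested: 2413 higher (15.6% of the genes tested) and 577 lower (3.72%) in the old libraries. In 7680 genes (49.6%) the libraries of the groups did not overlap: 39.5% of all genes were higher and 10% lower in both old libraries. Of all 15490 genes, 69.8% had a fold change above 0, with a median log2 fold change of 0.24, so the fold changes below are read beside 0.24 and not beside 0. This balance depends on the scaling. Of the genes at an unadjusted p below 0.05, 80.7% were higher in the old libraries as TPM, 61.2% as FPKM, 51.9% with quantile-normalized values and 36.0% with every library set to a common median. The median of all genes became 0.09, 0.02 and -0.09 under these scalings. Of 48 gene lists, the median log2 fold change turned from positive to negative in 12 with a common median, among them the theca, insulin-like growth factor, collagen, heat shock, antioxidant and apoptosis lists, in 7 with quantile-normalized values and in 7 as FPKM. Each of these medians was at most 0.33 in size, and none of the 27 medians of 0.5 or more in size turned.

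**Figure D2:**
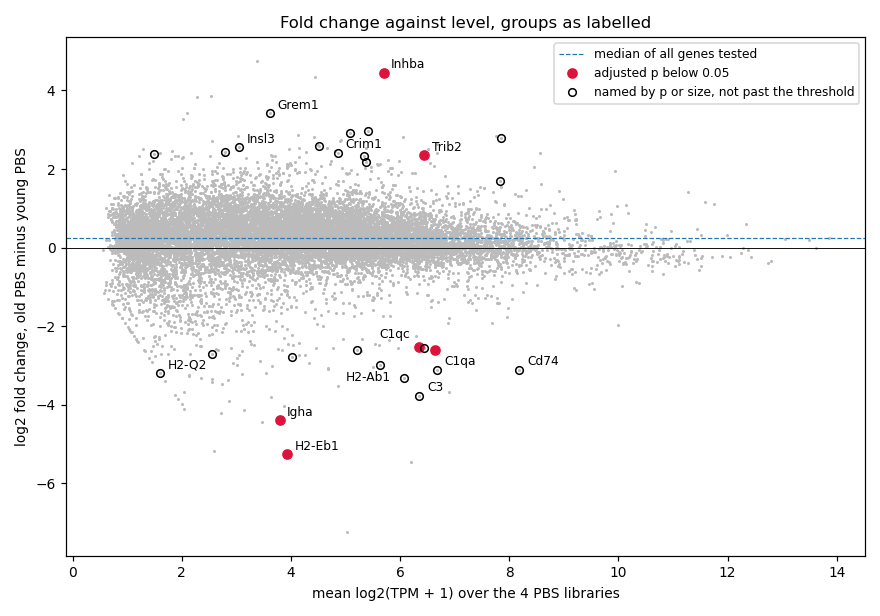
Log2 fold change of old PBS minus young PBS against the mean log2(TPM + 1) of the 4 PBS libraries, with 1 grey point per gene tested, red points for the 6 called genes and open circles for genes named by p or size that did not pass. The dashed line is the median of all genes, 0.24.

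MHC class II molecules are made by macrophages, dendritic cells and B cells and hold peptides on the cell surface. Of 9 tested genes of this pathway, 1 was called (H2-Eb1), all 9 were lower in both old libraries than in both young ones (10% of all genes were), and all 9 had an unadjusted p below 0.05 (3.72% of all genes did). Their median log2 fold change was -1.90. The classical chains H2-Aa and H2-Ab1 did not pass: H2-Aa stood at 276 and 328 TPM in the young libraries and at 25.8 and 44.4 TPM in the old ones (log2 fold change -3.11 ± 0.32, adjusted p = 0.0617). H2-Ab1 stood at 184 and 241 TPM and at 15.9 and 25.6 TPM (-3.32 ± 0.31, adjusted p = 0.0597). Cd74, the invariant chain that escorts class II molecules through the cell, stood at 675 and 1077 TPM and at 79.9 and 120.5 TPM (-3.11 ± 0.33, adjusted p = 0.0654). H2-Aa, H2-Ab1 and Cd74 thus kept a clear level in the old libraries, while H2-Eb1 fell to under 2 TPM.

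The peptide editors, which load class II molecules, were lower at smaller fold changes. H2-DMa stood at 17.3 and 19.5 TPM in the young libraries and 3.77 and 4.66 TPM in the old ones, H2-DMb1 at 15.0 and 13.3 and 3.98 and 5.14 TPM, and H2-DMb2 at 17.8 and 13.1 and 2.82 and 4.37 TPM. Ciita, the coactivator that switches class II genes on, stood at 1.30 and 2.31 TPM and at 0.259 and 0.442 TPM (log2 fold change -1.03). H2-Eb2 and H2-Ob did not reach the filter on low values and were not tested. Whether copies of a gene family share reads was not tested, and values of class II and class I paralogs are uncertain to that extent.

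Genes of MHC class II carry a conserved set of short elements upstream of their start site, among them an inverted CCAAT box. RefSeq promoters (GRCm38.p6) were found for 8 of the 11 class II genes listed, 9 promoters in all. The 6 letters GATTGG, or CCAATC on the opposite strand, were searched in the 150 bases before each start site. They stood in 7 of the 9 promoters, all but the 2 of H2-DMa, against 10.9% of 32851 promoters and 14.3% of the 14580 promoters of tested genes. The 9 include the promoters of H2-Eb2 and H2-Ob, which have the match but were not among the tested genes. A match is a run of letters and not a measured site. The promoters of 4 tested genes that differ in level and fold change are printed 5′ to 3′ with the match in capitals. H2-Eb1, the called gene, has the match on both strands, 60 and 35 bases before its start. The other 3 have 1 match each, at 49 bases for H2-Aa, 62 for H2-DMb1 and 91 for H2-DMb2.
H2-Eb1 (chr17:34305717-34305866, plus strand): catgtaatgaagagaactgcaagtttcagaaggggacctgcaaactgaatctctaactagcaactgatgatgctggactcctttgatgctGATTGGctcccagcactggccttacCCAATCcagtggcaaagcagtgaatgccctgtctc
H2-Aa (chr17:34287824-34287973, minus strand): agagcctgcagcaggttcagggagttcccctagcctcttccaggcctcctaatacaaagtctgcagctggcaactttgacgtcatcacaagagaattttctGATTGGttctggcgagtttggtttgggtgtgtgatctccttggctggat
H2-DMb1 (chr17:34153041-34153190, plus strand): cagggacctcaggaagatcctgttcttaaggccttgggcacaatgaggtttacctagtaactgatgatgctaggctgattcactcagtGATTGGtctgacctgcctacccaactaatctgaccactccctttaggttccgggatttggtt
H2-DMb2 (chr17:34145099-34145248, plus strand): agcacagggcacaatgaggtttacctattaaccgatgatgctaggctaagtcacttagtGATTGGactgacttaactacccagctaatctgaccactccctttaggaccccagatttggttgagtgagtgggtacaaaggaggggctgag

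Class I presentation, which all nucleated cells use to show internal peptides to killer T cells, differed less. Of 13 tested genes none was called and 10 were lower in both old libraries (10% of all genes were). Of the 13, 6 had an unadjusted p below 0.05 (3.72% of all genes were lower with one). The median log2 fold change was -0.79. Psmb8, a subunit of the immunoproteasome, stood at 70.9 and 68.8 TPM in the young libraries and 28.1 and 26.2 TPM in the old ones (log2 fold change -1.33 ± 0.19). Psmb9, its partner, stood at 38.0 and 37.7 and 19.6 and 19.2 TPM, and B2m, the light chain of class I, at 854 and 823 and 433 and 384 TPM. These 3 genes were about level within each group. H2-K1, a classical heavy chain, overlapped between the groups at 327 and 254 TPM and 352 and 209 TPM. H2-Q2, a class Ib gene, was listed at 7.17 and 9.24 TPM in the young libraries and at 0 in both old ones (adjusted p = 0.0617).

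Complement is a cascade of plasma and macrophage proteins that tags targets for uptake. Of 17 tested genes, 2 were called (C1qa and C1qc) and 14 were lower in both old libraries (10% of all genes were). A total of 13 had an unadjusted p below 0.05 (3.72% of all genes were lower with one). The median log2 fold change was -1.37. C1qb, the remaining C1q chain, did not pass at 242 and 179 TPM in the young libraries and 32.8 and 37.2 TPM in the old ones (log2 fold change -2.54 ± 0.23, adjusted p = 0.0597). C3, the central protein of the cascade, had the largest fold change of the list at 213 and 426 TPM and 16.7 and 26.6 TPM (-3.77 ± 0.38, adjusted p = 0.0617). C4b stood at 36.6 and 13.1 and 1.21 and 1.24 TPM. Serping1, the inhibitor of C1, was lower too, at 300.2 and 279 TPM against 131 and 121 TPM. The regulator Cd55 had a positive log2 fold change, 0.46, and its groups overlapped. Cfd rested on young 1, with 77.2 and 3.49 TPM in the young libraries and 0.213 and 1.81 TPM in the old ones, and its log2 fold change was -1.28 without young 1 and -5.41 without young 2.

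Macrophages engulf dying follicle cells and regressing corpora lutea. The macrophage list shares the 3 C1q genes with the complement list. Of its 13 tested genes, 2 were called and 11 were lower in both old libraries (10% of all genes were). An unadjusted p below 0.05 was found for 9 (3.72% of all genes were lower with one). The median log2 fold change was -1.72. Cd68, a lysosomal glycoprotein of macrophages, stood at 54.8 and 84.8 TPM in the young libraries and 13.3 and 12.2 TPM in the old ones (log2 fold change -2.33 ± 0.26). Lyz2, lysozyme, stood at 429 and 369.5 and 79.7 and 137 TPM, and Adgre1, a surface receptor of macrophages, at 15.3 and 18.4 and 3.999 and 4.79 TPM. Mertk, a receptor for the uptake of dying cells, overlapped at 8.57 and 7.73 and 8.35 and 9.78 TPM, as did Lyve1, a marker of resident tissue macrophages, at 7.32 and 4.45 and 6.05 and 8.98 TPM. None of the 13 genes was at 0 in a PBS library. In whole ovaries, fewer cells of a type and less RNA per cell cannot be told apart, and the part of macrophage number in the results for MHC class II and complement was not tested.

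Genes of lipid-laden and multinucleated macrophages were mixed. Of 14 tested, none was called and 7 were lower in both old libraries (10% of all genes were). As many were lower with an unadjusted p below 0.05 (3.72% of all genes were). The median log2 fold change was -0.95 (-0.60 without young 2). Trem2, a lipid receptor of macrophages, stood at 25.6 and 45.5 TPM in the young libraries and 4.98 and 4.52 TPM in the old ones (log2 fold change -2.61 ± 0.37, adjusted p = 0.118). Apoe, a lipid carrier protein, stood at 1647 and 2499 and 491 and 541 TPM, and Acp5, the tartrate-resistant acid phosphatase of giant cells and osteoclasts, at 65.8 and 77.9 and 24.0 and 31.8 TPM. Abca1, which exports cholesterol, was higher in both old libraries at 32.4 and 43.4 TPM against 13.2 and 15.1 TPM. Spp1, osteopontin, was high in young 2 alone, at 501 TPM against 19.5 TPM in young 1 and 118 and 40.2 TPM in the old libraries. Of 26 lysosomal genes tested, 6 had a fold change above 0 (69.8% of all genes did). A lower value in both old libraries was found for 8 (10% of all genes had one). The median log2 fold change of these 26 genes was -0.27 (-0.49 without young 1 and 0.02 without young 2). Ctss, a protease of antigen-presenting cells that trims the invariant chain, was lower in both old libraries at 125 and 92.7 TPM against 14.5 and 24.2 TPM (log2 fold change -2.46 ± 0.33, adjusted p = 0.0967). Laptm5, a lysosomal membrane protein of blood cells, stood at 76.5 and 105 TPM and 12.6 and 15.4 TPM (-2.60 ± 0.25, adjusted p = 0.0597), and Pld4, an exonuclease of immune cell endosomes, at 57.1 and 30.1 and 4.67 and 5.76 TPM.

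Fc receptors bind antibodies on the surface of macrophages and other immune cells. All 12 tested genes of the Fc receptor and adaptor list were lower in both old libraries (10% of all genes were). Of the 12, 9 had an unadjusted p below 0.05 (3.72% of all genes were lower with one) and none was called. Their median log2 fold change was -1.50, -1.18 without young 1 and -2.04 without young 2. Fcgr2b, the inhibitory receptor, stood at 31.6 and 37.0 TPM in the young libraries and 5.59 and 7.56 TPM in the old ones (log2 fold change -2.23 ± 0.25, adjusted p = 0.0793). Fcgr3 stood at 24.3 and 21.7 and 6.43 and 8.45 TPM, and Tyrobp, a signalling adaptor, at 169 and 77.8 and 20.1 and 19.3 TPM. Fcgr4 rested on 1 library: it stood at 218 TPM in young 1, 2.65 TPM in young 2 and 0.968 and 0.827 TPM in the old libraries.

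**Figure D3:**
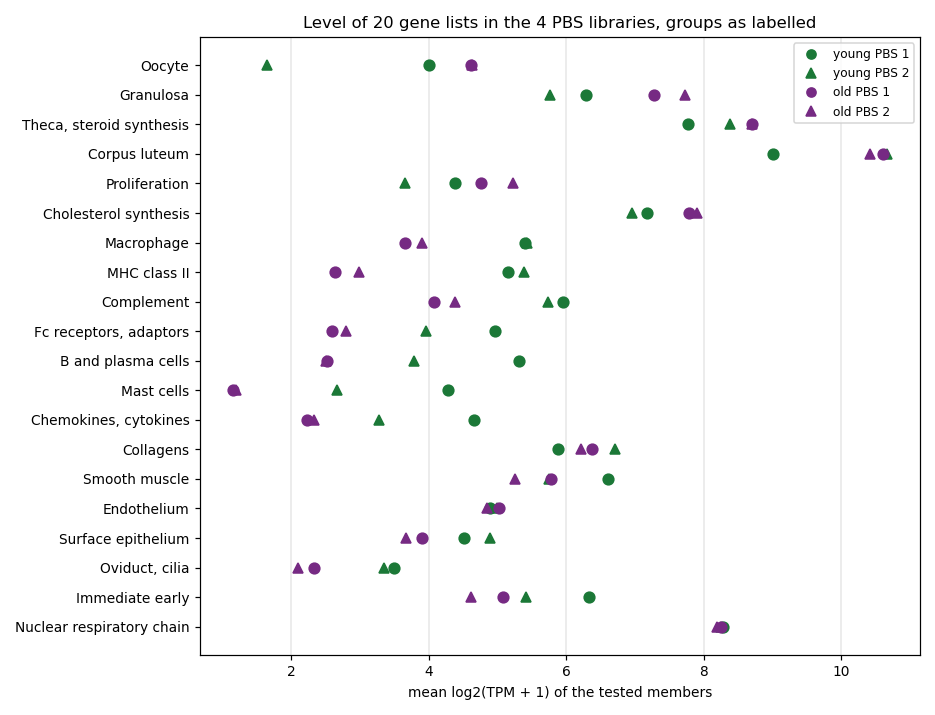
Mean log2(TPM + 1) of the tested members of 20 gene lists in each PBS library, with green for young and purple for old, circles for library 1 and triangles for library 2. The macrophage, MHC class II, complement, Fc receptor, mast cell and chemokine lists lie to the left in both old libraries, the granulosa, proliferation and cholesterol lists to the right, and young 2 is lowest for the oocyte list.

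B cells and plasma cells make antibodies. Of 15 tested genes of the list, 1 was called (Igha) and 9 were lower in both old libraries (10% of all genes were). An unadjusted p below 0.05 was found for 7 (3.72% of all genes were lower with one). The median log2 fold change was -2.05, -1.28 without young 1 and -2.82 without young 2. Igkc, the constant region of the kappa light chain, stood at 1340 and 174 TPM in the young libraries and 9.50 and 10.6 TPM in the old ones. Its log2 fold change was -5.46 ± 1.33 (adjusted p = 0.197), -3.99 without young 1. Ighg2c stood at 23.5 and 7.72 and 0 and 0.314 TPM, and Jchain, which joins immunoglobulin A and M units, at 33.7 and 4.29 and 0.266 and 0.560 TPM. Genes of the secretory machinery that other cells also use did not follow: Xbp1 stood at 121 and 128 TPM and 125 and 116 TPM, and Derl3 at 39.7 and 11.1 TPM and 39.9 and 52.0 TPM. Ms4a1, Pax5 and Tnfrsf17 were among the listed genes that did not reach the filter.

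T and natural killer cell genes were low in every PBS library. Of 17 listed, 9 were tested, and 5 had an unadjusted p below 0.05 (3.72% of all genes were lower with one). Of the 9, 6 were lower in both old libraries (10% of all genes were), and none was called. The list's median log2 fold change was -1.22 (-0.72 without young 2). Cd3e, part of the T cell receptor complex, stood at 4.21 and 2.93 TPM in the young libraries and 0.378 and 0.576 TPM in the old ones. Ccl5, a chemokine of T cells, stood at 9.28 and 6.06 and 1.35 and 1.96 TPM, and Nkg7, a granule protein, at 2.37 and 4.42 and 0.871 and 0.778 TPM. H60b, a ligand of the NKG2D receptor of natural killer cells, had the opposite direction at 0.208 and 0.275 TPM in the young libraries and 5.43 and 5.42 TPM in the old ones (log2 fold change 2.37 ± 0.29, adjusted p = 0.082).

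Mast cells store proteases in granules. Of 7 tested mast cell genes, 6 were lower in both old libraries (10% of all genes were) and none was called. For 5 the unadjusted p was below 0.05 (3.72% of all genes were lower with one). Mcpt4, Cma1, Tpsb2, Tpsab1 (annotated as a transcribed pseudogene) and Cpa3 were listed at 0 in both old libraries. The share of all genes listed so was not counted. Mcpt4 stood at 40.3 and 5.14 TPM in the young libraries, Tpsb2 at 30.9 and 5.63 TPM and Tpsab1 at 5.70 and 1.61 TPM, so each was several times higher in young 1 than in young 2. Hdc, which makes histamine, and Gata2, a transcription factor, are not limited to mast cells and differed little, Hdc at 50.03 and 45.6 TPM and 36.3 and 44.6 TPM and Gata2 at 5.21 and 6.55 TPM and 6.11 and 6.05 TPM. Of 6 tested neutrophil and monocyte genes 1 had an unadjusted p below 0.05 (3.72% of all genes were lower with one). This gene was Ly6c2, at 8.13 and 8.39 TPM and 3.40 and 2.93 TPM. The neutrophil gene S100a8 varied within the groups, at 4.72 and 1.00 TPM and 6.04 and 0.919 TPM.

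Chemokines draw immune cells into tissue. Of 19 tested chemokine and cytokine genes, 14 were lower in both old libraries (10% of all genes were) and none was called. For 12 the unadjusted p was below 0.05 (3.72% of all genes were lower with one). The median log2 fold change was -1.69, -0.98 without young 1 and -2.40 without young 2. Ccl7, which attracts monocytes, stood at 35.7 and 6.10 TPM in the young libraries and 0.766 and 0.503 TPM in the old ones, Ccl12 at 5.06 and 3.85 and 0 and 0.998 TPM, and Cxcl16 at 36.7 and 66.7 and 14.2 and 15.8 TPM. Cxcl1, a neutrophil attractant, was high in young 1 alone at 156 TPM against 4.43 TPM in young 2 and 2.60 and 3.38 TPM in the old libraries. Cxcl12, made by stromal cells, overlapped at 55.6 and 79.1 and 67.9 and 74.4 TPM.

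Interferon-induced genes were lower at modest fold changes. Of 17 tested, 13 were lower in both old libraries (10% of all genes were). For 6 the unadjusted p was below 0.05 (3.72% of all genes were lower with one). The median log2 fold change was -0.62 (-0.98 without young 2). Oasl2 stood at 31.9 and 32.9 TPM in the young libraries and 13.8 and 10.4 TPM in the old ones, the guanylate-binding Gbp2 at 90.9 and 77.6 and 30.8 and 41.0 TPM, and the GTPase Ifi47 at 26.3 and 16.5 and 6.81 and 7.44 TPM. Of 9 inflammasome genes tested, Casp1, the protease that matures interleukin-1, was lower at 11.3 and 9.38 TPM against 2.65 and 2.80 TPM (log2 fold change -1.60 ± 0.29, adjusted p = 0.158). Il1r1, the interleukin-1 receptor, was higher in both old libraries at 22.9 and 23.9 TPM against 10.1 and 17.7 TPM. The list's median was -0.70 (-0.07 without young 1, -1.44 without young 2 and -0.46 without old 2).

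The oocyte list held growth factors, zona pellucida proteins, transcription factors and maternal factors. All 25 genes had a fold change above 0 (69.8% of all genes did), 23 were higher in both old libraries (39.5% of all genes were), 13 had an unadjusted p below 0.05 (15.6% of all genes did) and none was called. The median log2 fold change was 1.94, and it rested on young 2: it was 3.42 without young 1, with 21 genes called, and 0.66 without young 2, with none called. Dazl, a translation regulator of germ cells, stood at 0.546 and 0 TPM in the young libraries and 2.31 and 2.33 TPM in the old ones (log2 fold change 1.42 ± 0.35). Mos, the kinase that holds the mature oocyte in meiosis, stood at 7.01 and 0.920 and 13.8 and 14.2 TPM. Nobox, a transcription factor of early oocytes, stood at 9.89 and 1.04 TPM and 17.8 and 15.9 TPM. For Mos and Nobox young 1 was much nearer to the old libraries than young 2 was.

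Tle6, a member of the maternal complex beneath the oocyte membrane, differed from the rest of the list: young 2, at 54.4 TPM, was close to young 1, at 57.6 TPM, and the old libraries stood at 99.2 and 80.3 TPM (log2 fold change 0.66 ± 0.21). Its partners in that complex had young 2 far below young 1: Nlrp5 stood at 18.1 and 2.11 TPM in the young libraries, Ooep at 26.6 and 1.93 TPM and Khdc3 at 18.5 and 1.90 TPM. Among factors of the smallest follicles, Figla stood at 1.60 and 0.171 TPM and 1.87 and 1.47 TPM and Sohlh1 at 2.14 and 0.294 TPM and 2.67 and 1.94 TPM, so young 1 lay within or next to the range of the old libraries. Gdf9, which signals from the oocyte to granulosa cells, stood at 73.2 and 9.51 TPM and 116 and 108 TPM, with a log2 fold change of 3.43 without young 1 and 0.60 without young 2.

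Granulosa cells feed the oocyte, make oestrogen and secrete activin, inhibin and follistatin. Of 16 tested genes, 1 was called (Inhba) and 12 were higher in both old libraries (39.5% of all genes were). The same number had an unadjusted p below 0.05 (15.6% of all genes were higher with one). The median log2 fold change was 1.40, 1.83 without young 1 and 1.15 without young 2. Among the inhibin and activin subunits, Inhbb stood at 126 and 125 TPM in the young libraries and 401 and 418 TPM in the old ones (log2 fold change 1.70 ± 0.21, adjusted p = 0.082). Inha, the alpha subunit, stood at 2048 and 2051 TPM and 4145 and 5098 TPM (1.17). The 3 subunits were thus higher in both old libraries, Inhba by 21.7-fold on the scale of TPM + 1. Fst, which encodes follistatin, the activin-binding protein, stood at 127 TPM in young 1, 14.4 TPM in young 2 and 223 and 251 TPM in the old libraries.

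Gja1, the gap junction protein that couples granulosa cells, stood at 576 and 427 TPM and 1708 and 2188 TPM (log2 fold change 1.96 ± 0.32, adjusted p = 0.145). Cyp19a1, the aromatase that makes oestrogen, stood at 5.85 and 18.6 TPM and 58.2 and 96.7 TPM, and Serpine2, a protease inhibitor, at 292 and 161 and 623 and 722 TPM. Foxl2, which maintains granulosa cell identity, differed less, at 104 and 127 TPM and 175 and 203 TPM. Amh, the anti-Mullerian hormone of growing follicles, stood at 95.0 and 40.1 TPM and 122 and 213 TPM, with a log2 fold change of 1.98 without young 1 and 0.76 without young 2. Its receptor Amhr2 overlapped at 102 and 94.7 TPM and 93.3 and 110.1 TPM, as did Kitl, the ligand of the oocyte receptor Kit, at 5.77 and 6.73 and 3.44 and 7.89 TPM.

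The genes with the smallest p-values in the higher direction that were not called included several signalling proteins. Grem1, an antagonist of bone morphogenetic proteins (BMPs), stood at 2.93 and 2.62 TPM in the young libraries and 28.8 and 53.1 TPM in the old ones (log2 fold change 3.41 ± 0.35, adjusted p = 0.0617). Crim1, a membrane protein that binds BMPs, stood at 12.5 and 10.6 TPM and 56.2 and 77.2 TPM (2.42 ± 0.28, adjusted p = 0.082). Rasd2, a small GTPase, stood at 13.0 and 15.6 and 154 and 90.8 TPM, and Mro, which encodes maestro, at 13.1 and 9.70 and 118 and 71.4 TPM. Sema5a, a semaphorin, stood at 21.3 and 16.1 TPM and 75.0 and 101 TPM. Plxnc1, a semaphorin receptor, stood at 20.8 and 14.1 TPM and 82.1 and 98.6 TPM. Adjusted p-values of these 6 genes lay between 0.0617 and 0.0914.

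Among genes whose libraries differed by less than 2-fold within both groups, further large positive fold changes were those of Prkar2b, Nmrk1, Insl3 and Pak3. Prkar2b, a regulatory subunit of protein kinase A, stood at 117 and 63.8 TPM in the young libraries and 516 and 696 TPM in the old ones (log2 fold change 2.78 ± 0.40). Nmrk1, a nicotinamide riboside kinase of NAD synthesis, stood at 10.7 and 6.46 TPM and 65.8 and 46.7 TPM, and Pak3, a kinase, at 2.72 and 1.39 and 11.7 and 19.2 TPM. In the lower direction, Des, the muscle filament desmin, stood at 154 and 127 TPM and 19.7 and 14.1 TPM (-3.00 ± 0.72, adjusted p = 0.197). Adcyap1, which encodes the neuropeptide PACAP, stood at 15.4 and 13.0 TPM and 1.90 and 0.828 TPM (-2.72 ± 0.60, adjusted p = 0.195). None of these 6 genes passed limma's test. The errors of Des and Adcyap1 also carry the spread of the MIT-001 libraries, which for both genes was wider than that within either PBS group.

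BMP signals act between oocyte, granulosa and theca cells. Of 19 tested BMP genes, 13 were higher in both old libraries (39.5% of all genes were) and none was called. For 7 the unadjusted p was below 0.05 (15.6% of all genes were higher with one). The median log2 fold change was 0.52. The receptor Bmpr1b stood at 9.74 and 3.02 TPM in the young libraries and 29.1 and 45.1 TPM in the old ones (log2 fold change 2.505 ± 0.49). Bmpr2 stood at 20.0 and 13.3 and 43.4 and 92.9 TPM. Among the ligands, Bmp2 was higher in both old libraries, at 13.3 and 14.8 TPM against 8.40 and 4.85 TPM, while Bmp4 and Bmp7 overlapped, Bmp7 at 9.15 and 42.4 TPM and 30.7 and 5.82 TPM. The target genes Id1 and Id3 had log2 fold changes of 0.48 and 0.52, and Id2 and Id4 of -0.13 and -0.03.

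Gonadotropins and steroids act on the ovary through receptors, of which 9 were tested. A total of 7 were higher in both old libraries (39.5% of all genes were) and none was called. For 4 the unadjusted p was below 0.05 (15.6% of all genes were higher with one). The median log2 fold change was 0.80 (0.37 without old 2). Fshr, the receptor of follicle-stimulating hormone on granulosa cells, stood at 17.7 and 19.9 TPM in the young libraries and 43.7 and 62.3 TPM in the old ones (log2 fold change 1.43 ± 0.36). Lhcgr, the receptor of luteinizing hormone, stood at 214 and 137 TPM and 357 and 553 TPM (1.37 ± 0.34), and the insulin receptor Insr at 15.7 and 18.8 and 33.6 and 35.5 TPM. The oestrogen receptors differed in direction: Esr2, found in granulosa cells, stood at 27.3 and 7.19 TPM and 54.1 and 68.6 TPM, and Esr1, found in theca and stroma, at 14.8 and 15.6 TPM and 11.3 and 12.2 TPM.

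Insulin-like growth factors add to gonadotropin action, and their binding proteins restrain them. Of 13 tested genes, 4 were higher (39.5% of all genes were) and 5 lower (10% were) in both old libraries. Igf1r, the receptor, stood at 13.8 and 23.8 TPM in the young libraries and 40.9 and 44.4 TPM in the old ones, Irs1, its docking protein, at 8.64 and 11.8 and 25.7 and 23.6 TPM, and Pappa, a protease of binding proteins, at 2.57 and 2.39 and 7.57 and 11.3 TPM. The binding proteins Igfbp4 and Igfbp6 were lower, Igfbp4 at 569 and 1310 TPM and 459.8 and 363 TPM. The list's median was 0.28 (-0.11 without young 1 and 0.15 without old 2). Among regulators of follicle dormancy, Foxo1 stood at 50.9 and 51.6 TPM and 118 and 165 TPM (log2 fold change 1.43 ± 0.25), Kit, the oocyte receptor, at 7.74 and 3.50 and 15.4 and 17.3 TPM, and Rps6kb1, a kinase downstream of mTOR, at 8.22 and 4.86 and 11.9 and 20.7 TPM. Foxo3, which holds primordial follicles dormant, overlapped at 19.4 and 34.7 TPM and 28.6 and 25.2 TPM. Of the 12 genes, 6 were higher in both old libraries, near the share of all genes (39.5%), and the median was 0.38 (0.16 without young 1), or 0.04 after median centring.

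Notch and Wnt genes showed no common direction. Of 17 tested, 4 were higher (39.5% of all genes were) and 4 lower (10% were) in both old libraries. Their median was 0.02 (-0.11 without young 1, 0.39 without young 2, -0.05 without old 1 and 0.21 without old 2). The Wnt receptor Fzd4 stood at 8.55 and 7.62 TPM in the young libraries and 22.5 and 25.0 TPM in the old ones (log2 fold change 1.44 ± 0.24), and its relative Fzd1 at 27.0 and 25.6 TPM and 16.02 and 17.5 TPM (-0.62 ± 0.25). Hey2, a Notch target, stood at 9.29 and 4.58 and 23.6 and 37.4 TPM. Imprinted genes, which are transcribed from the chromosome of 1 parent, had a median of 0.62 (0.21 without young 2), with 7 of 15 higher in both old libraries, near the share of all genes (39.5%). The long noncoding RNA Rian stood at 7.40 and 2.74 TPM and 21.9 and 17.0 TPM, and the zinc finger gene Plagl1 at 7.68 and 6.55 and 15.2 and 35.4 TPM. Igf2, a growth factor, was lower in both old libraries at 6.44 and 4.12 TPM against 8.98 and 7.83 TPM, and Cdkn1c, an inhibitor of the cell cycle, overlapped at 17.0 and 4.43 and 9.88 and 8.31 TPM.

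**Figure D4:**
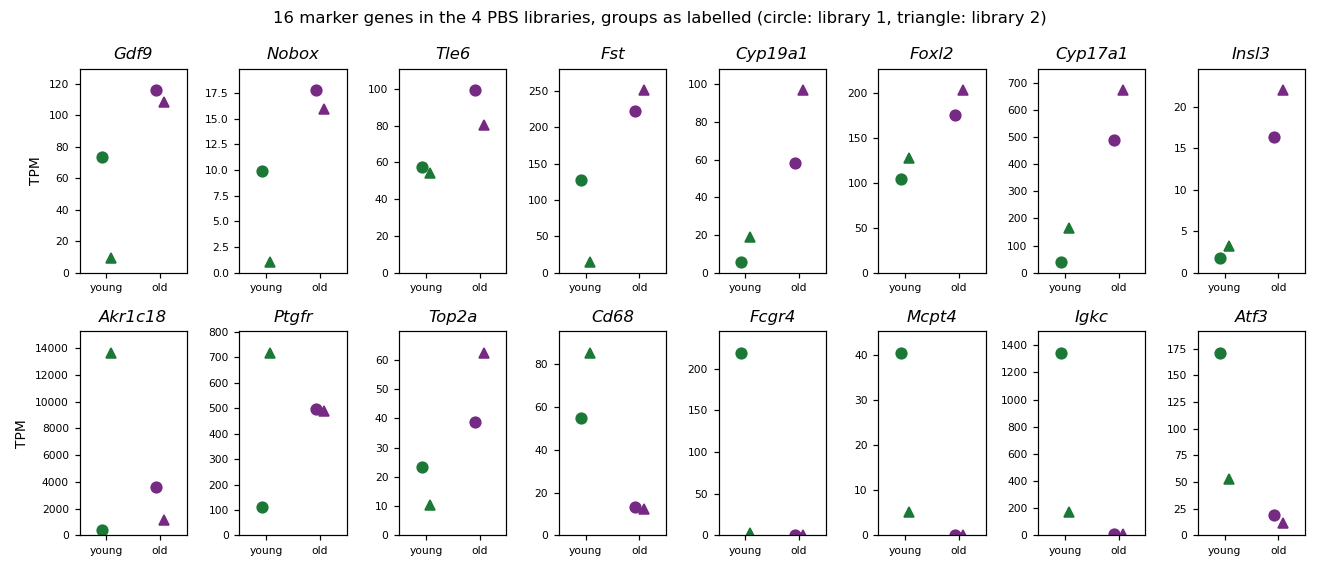
TPM of 16 marker genes in each PBS library, with green for young and purple for old, circles for library 1 and triangles for library 2. Gdf9 and Nobox are low in young 2 alone, Akr1c18 is high in young 2, and Fcgr4, Mcpt4 and Igkc are high in young 1.

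Theca and steroid genes as a list stood near all genes. Of 15 tested, 6 were higher in both old libraries (39.5% of all genes were), all 6 with an unadjusted p below 0.05 (15.6% of all genes had one), and the median log2 fold change was 0.33 (-0.18 without young 1 and 0.76 without young 2). Insl3, insulin-like 3, which theca cells make, stood at 1.78 and 3.18 TPM in the young libraries and 16.4 and 22.0 TPM in the old ones (log2 fold change 2.55 ± 0.34, adjusted p = 0.0967). Cyp17a1, which makes androgens, stood at 38.4 and 165 TPM and 490.3 and 674 TPM (2.83 ± 0.86), and Ptch1, the hedgehog receptor, at 16.8 and 13.5 and 27.6 and 30.7 TPM. Cyp11a1, which starts steroid synthesis, stood at 9021 and 20650 TPM and 17240 and 15030 TPM, and Star, which moves cholesterol into mitochondria, at 2101 and 3928 TPM and 2446 and 2612 TPM. The groups overlapped for both.

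The corpus luteum list followed the difference between young 1 and young 2. Its median over 10 tested genes was 0.56 (-0.45 without young 1 and 1.47 without young 2). Akr1c18, which breaks down progesterone in regressing corpora lutea, stood at 425 TPM in young 1, 13610 TPM in young 2 and 3597 and 1164 TPM in the old libraries. Ptgfr, the receptor of the prostaglandin that starts this regression, stood at 112, 716 and 495 and 489 TPM in that order. Prlr, the prolactin receptor, stood at 56.2, 238 and 149.6 and 273 TPM, so young 2 lay within or above the range of the old libraries for all 3. Hsd17b7, which acts in cholesterol and oestrogen synthesis, was higher in both old libraries at 806 and 952 TPM against 292 and 91.7 TPM.

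Of 11 genes induced at ovulation 5 were tested, and all 5 overlapped between the groups. Tnfaip6, a matrix protein of the expanding cumulus, stood at 8.91 and 2.31 TPM in the young libraries and 3.34 and 2.05 TPM in the old ones, Adamts1, a protease, at 31.3 and 12.4 and 25.7 and 27.2 TPM, and the peptide gene Edn2 at 2.09 and 2.87 and 5.79 and 2.51 TPM. Ptgs2, Has2, Areg, Btc, Pgr and Sult1e1 did not reach the filter on low values. Among 12 prostaglandin genes tested, Hpgd, which degrades prostaglandins, was higher in the old libraries at 27.1 and 66.1 TPM against 15.9 and 6.61 TPM. Tbxas1, thromboxane synthase, was lower at 0.931 and 2.05 TPM against 4.65 and 9.74 TPM, and Ptgs1 at 4.43 and 3.77 TPM against 7.62 and 11.5 TPM. The list's median was -0.12 (-0.05 without young 1, -0.27 without young 2, -0.02 without old 1 and -0.25 without old 2).

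Proliferation genes were higher in the old libraries. All 25 had a fold change above 0 (69.8% of all genes did) and 21 were higher in both old libraries (39.5%). Of the 25, 15 had an unadjusted p below 0.05 (15.6% of all genes were higher with one) and none was called. Their median log2 fold change was 0.93, 1.24 without young 1, where 10 were called, and 0.59 without young 2. Top2a, which untangles DNA in dividing cells, stood at 23.4 and 10.5 TPM in the young libraries and 38.8 and 62.3 TPM in the old ones (log2 fold change 1.58 ± 0.42). Rrm2, which supplies nucleotides for DNA synthesis, stood at 15.5 and 13.1 and 26.8 and 38.5 TPM, and the replication helicase subunit Mcm3 at 27.8 and 21.6 and 39.3 and 50.8 TPM. Mki67, a marker of cycling cells, was spread more widely within the old libraries, at 6.85 and 25.3 TPM against 4.53 and 5.47 TPM in the young ones.

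Many DNA repair genes rise in dividing cells and oocytes. All 18 tested had a fold change above 0 (69.8% of all genes did), and 15 were higher in both old libraries (39.5%). Of the 18, 5 had an unadjusted p below 0.05 (15.6% of all genes were higher with one). The median was 0.67 (1.01 without young 1 and 0.43 without young 2). Fancd2 stood at 2.23 and 1.55 TPM in the young libraries and 4.18 and 5.46 TPM in the old ones, the helicase Blm at 3.38 and 1.53 and 5.26 and 8.69 TPM, and the recombination factor Rad54l at 3.06 and 1.30 and 4.72 and 5.23 TPM. For these 3 genes young 2 was lowest. The proliferation list was higher in the old libraries too, and its part in this result was not tested.

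Cholesterol synthesis supplies steroid hormones and membranes. Of 22 tested genes, 20 had a fold change above 0 (69.8% of all genes did) and 15 were higher in both old libraries (39.5%). For 12 the unadjusted p was below 0.05 (15.6% of all genes were higher with one), and none was called. The median log2 fold change was 0.71, 0.81 without young 1 and 0.68 without young 2. Sqle, which makes squalene epoxide, stood at 135 and 196 TPM in the young libraries and 342 and 356 TPM in the old ones (log2 fold change 1.10 ± 0.24). Hmgcs1 stood at 467 and 181 TPM and 607 and 1018 TPM. Leaving out either young library moved this median by less than that of the oocyte, luteal and theca lists, and after median centring it was 0.38.

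**Figure D5:**
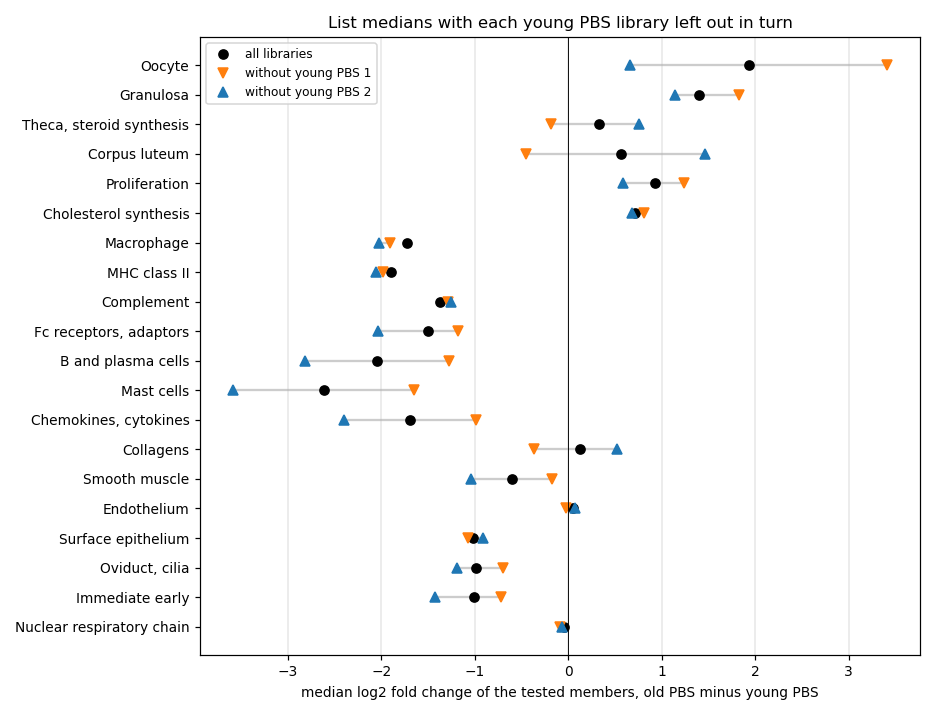
Median log2 fold change of the tested members of 20 gene lists with all libraries (black circles), without young 1 (orange triangles pointing down) and without young 2 (blue triangles pointing up). The theca, corpus luteum, collagen and endothelium medians change sign when young 1 is left out, while MHC class II, complement and cholesterol medians move little.

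For most collagens and other matrix genes the groups overlapped. Of 16 collagen genes, 3 were higher in both old libraries (39.5% of all genes were) and none was lower in both (10% were). None had an unadjusted p below 0.05. The median was 0.13 (-0.37 without young 1, 0.52 without young 2, -0.05 without old 1 and 0.28 without old 2). Col3a1, a fibrillar collagen of the stroma, stood at 297 and 411 TPM in the young libraries and 448 and 462 TPM in the old ones, and Col1a1 at 117 and 289.5 TPM and 273 and 180.4 TPM. Among 23 other matrix genes the median was -0.23 (-0.70 without young 1, 0.25 without young 2, -0.38 without old 1 and -0.14 without old 2). Ogn, the proteoglycan osteoglycin, stood at 40.0 and 25.4 and 65.9 and 209 TPM, Vcan, versican, at 10.3 and 9.43 and 21.4 and 42.2 TPM, and Lox, which cross-links collagen, at 7.60 and 3.81 and 9.31 and 14.0 TPM. These 3 were higher in both old libraries. Tnc and Mmp9 were high in young 2 alone, Mmp9 at 121 TPM against 2.76 TPM in young 1 and 3.10 and 1.51 TPM in the old libraries.

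Fibroblast and endothelial genes lacked a common direction, and most smooth muscle genes had a negative fold change. The fibroblast median over 10 genes was -0.22 (-0.14 without young 2 and -0.12 without old 1), with Gsn, the actin-severing gelsolin, at 393 and 180.4 TPM in the young libraries and 121 and 97.2 TPM in the old ones. Of 12 smooth muscle genes 11 had a fold change below 0 (69.8% of all genes had one above 0), and none was called. A total of 6 were lower in both old libraries (10% of all genes were). Of these 6, 1 had an unadjusted p below 0.05 (3.72% of all genes were lower with one). The list's median was -0.60 (-0.17 without young 1 and -1.04 without young 2). Acta2, smooth muscle actin, overlapped at 484 and 239 and 407 and 274 TPM, and Myocd, the coactivator of muscle genes, was higher in the old libraries at 7.49 and 7.97 TPM against 3.44 and 0.770 TPM. Endothelial genes had a median of 0.06 (-0.03 without young 1, -0.05 without old 1 and 0.17 without old 2) over 17 genes, and Pecam1, a general marker, overlapped at 72.0 and 60.4 and 78.5 and 73.6 TPM. Plvap, of fenestrated capillaries, was lower at 25.2 and 20.4 TPM against 43.5 and 44.0 TPM. The clotting factor gene Vwf was lower at 3.54 and 3.56 TPM against 8.76 and 13.0 TPM. Flt1, a receptor of vascular endothelial growth factor, was higher at 24.7 and 29.3 TPM against 13.5 and 13.8 TPM.

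Epithelial genes were lower in the old libraries. All 9 tested genes of the ovarian surface epithelium had a fold change below 0, with a median of -1.02, and none was called. Of all genes, 69.8% had a fold change above 0. Of the 9, 7 were lower in both old libraries (10% of all genes were). An unadjusted p below 0.05 was found for 5 (3.72% of all genes were lower with one). The keratin Krt18 stood at 49.7 and 48.8 TPM in the young libraries and 23.1 and 22.5 TPM in the old ones (log2 fold change -1.08 ± 0.18, adjusted p = 0.145). Upk3b, a mesothelial membrane protein, stood at 58.4 and 89.0 and 26.5 and 35.0 TPM, and the tight junction protein Cldn3 at 10.1 and 23.5 and 2.90 and 2.70 TPM. The oviduct list, included since oviduct can remain on a dissected ovary, had a fold change below 0 in all 10 tested genes and a median of -0.99. Of the 10, 6 were lower in both old libraries (10% of all genes were) and none was called. For 3 the unadjusted p was below 0.05 (3.72% of all genes were lower with one). Wfdc2 stood at 8.06 and 40.2 TPM and 0.325 and 1.44 TPM, Epcam at 57.0 and 17.4 and 9.36 and 3.18 TPM and Pax8 at 7.06 and 1.95 and 0.585 and 0.178 TPM. Summed over the list, oviduct genes stood at 164 and 232 TPM in the young libraries and at 77.8 and 73.2 TPM in the old ones, and the part of attached oviduct in the epithelial result was not tested.

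Of 9 tested fat cell genes, 3 were lower (10% of all genes were) and 2 higher (39.5% were) in both old libraries. None was called. Adipoq, adiponectin of fat cells, stood at 21.5 and 1.05 TPM in the young libraries and 0.170 and 0.314 TPM in the old ones, and Car3, a carbonic anhydrase abundant in fat, at 117 and 29.0 and 0.885 and 5.92 TPM. Both were highest in young 1. Scd1, a fatty acid desaturase also made by steroid-producing cells, was higher in the old libraries at 158 and 102 TPM against 50.2 and 63.6 TPM, and the list's median over 9 genes was -0.43 (-0.76 without young 2). All 5 tested erythroid genes were higher in both old libraries (39.5% of all genes were), with a median of 0.89 (0.42 without young 1). The globin gene Hbb-bs stood at 649 and 752 TPM and 1454 and 1434 TPM. The globin genes are near-identical copies, so the division of reads among them is uncertain.

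Immediate early genes respond within minutes to stress or handling of tissue. Of 24 tested, 21 had a fold change below 0 (69.8% of all genes had one above 0). A total of 19 were lower in both old libraries (10% of all genes were). For 10 the unadjusted p was below 0.05 (3.72% of all genes were lower with one), and none was called. The median was -1.003, -0.71 without young 1 and -1.43 without young 2. Fosb stood at 186 and 121 TPM in the young libraries and 36.3 and 16.8 TPM in the old ones (log2 fold change -2.55 ± 0.43, adjusted p = 0.146), Atf3 at 171 and 53.3 and 18.8 and 11.3 TPM, and the orphan receptor Nr4a1 at 197 and 156 and 85.9 and 56.6 TPM. The part of tissue handling in these values was not tested. Heat shock genes had a median of 0.28 (0.53 without young 1). The inducible Hspa1a varied by library and not by group, at 297 and 33.6 TPM and 133 and 15.0 TPM, while Hsph1 stood at 63.8 and 51.9 and 94.7 and 92.7 TPM. Genes of the integrated stress response had a median of -0.01 (0.12 without young 1, 0.44 without young 2, -0.03 without old 1 and -0.04 without old 2), and Asns, asparagine synthetase, stood at 24.5 and 21.4 TPM and 30.2 and 39.1 TPM.

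Genes of oxidative metabolism were close to the median of all genes or below it. The 32 nuclear genes of the respiratory chain had log2 fold changes from -0.49 to 0.34 with a median of -0.04 (-0.09 without young 1, -0.06 without young 2 and -0.08 without old 1), and none was called. Ndufb10, a subunit of complex I, stood at 251 and 296 TPM in the young libraries and 204 and 182 TPM in the old ones. The 13 genes of the mitochondrial genome had a median of 0.32 (0.10 without young 1, 0.51 without old 1 and 0.13 without old 2), and ND2 was higher at 3636 and 4461 TPM against 1319 and 1745 TPM. Antioxidant genes had a median of 0.12 (0.33 without young 1) over 22 genes. Of the 22, 5 were higher at an unadjusted p below 0.05 (15.6% of all genes were). Cat, catalase, stood at 99.6 and 112 TPM and 184 and 170.5 TPM, Gsta4, a glutathione transferase, at 189 and 208 and 352 and 319 TPM, and Gclc, which starts glutathione synthesis, at 27.7 and 33.8 and 47.6 and 51.2 TPM. Gpx4, which repairs lipid peroxides, overlapped at 1211 and 998 TPM and 1182 and 931 TPM. Iron and ferroptosis genes had a median of -0.14 (-0.37 without young 1, 0.25 without young 2 and -0.08 without old 2). Trf, transferrin, was lower at 20.7 and 26.9 TPM against 76.3 and 205 TPM, while Tfrc, its receptor, was higher at 23.2 and 48.8 TPM against 18.1 and 13.9 TPM and Acsl4, which feeds lipids into ferroptosis, at 162 and 275 TPM against 97.3 and 93.0 TPM.

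Lists tied to ageing of cells showed small medians. Among 12 tested senescence genes the median was 0.06 (0.27 without young 1, -0.19 without young 2, -0.11 without old 1 and 0.13 without old 2). Cdkn2a, which encodes p16 and is a marker of senescent cells, stood at 9.94 and 40.5 TPM in the young libraries and 2.48 and 1.24 TPM in the old ones (log2 fold change -2.93 ± 0.95, adjusted p = 0.214). It was highest in young 2, and its log2 fold change was -3.89 without young 1 and -1.97 without young 2. Cdkn1a, which encodes p21, stood at 30.1 and 107 TPM and 26.0 and 21.3 TPM. Lmnb1, the lamin lost in senescent cells, was higher at 51.4 and 70.3 TPM against 34.6 and 25.1 TPM. Sirtuin and NAD genes had a median of 0.11 (-0.03 without young 1 and 0.03 without old 1), with Sirt1, a deacetylase, at 6.55 and 4.56 TPM and 9.15 and 16.7 TPM and Nmnat1 at 8.54 and 6.55 and 13.1 and 11.6 TPM. Apoptosis genes had a median of 0.10 (0.36 without young 2), with Bid, which links death receptors to mitochondria, at 7.88 and 8.09 TPM in the young libraries and 13.3 and 14.8 TPM in the old ones. Bax overlapped at 127 and 113 TPM and 124 and 120.2 TPM. No gene of the senescence, sirtuin and apoptosis lists was called.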

How the data were processed

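Ovarian mRNA was profiled in 6 libraries, 2 for each labelled group, of which the 4 PBS libraries were compared. TRIzol extraction and a SMARTer kit for mRNA were used, per the labels' protocols. The submitters' processing notes name Trimmomatic, HISAT2, StringTie and mm10; their versions, annotation and strand setting were not given in the sources used here. The values tested were the TPM that the authors deposited, which are abundances scaled for length and library. FPKM values from the authors served as an alternative, and the authors' coverage signal only to estimate aligned bases; both are so named per the file headers. No read counts were used, so precision is known from the spread between libraries alone.

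Genes were named by Gene ID from a RefSeq table (GRCm38.p6). A total of 98 IDs per library did not match, held at most 0.0301% of TPM and were left out. Genes with at least 1 TPM in at least 2 of the 4 PBS libraries were tested as log2(TPM + 1), so fold changes understate those of low genes. The limma model (version 3.58.1, R 4.3.3) had a mean for each group, used all 6 libraries and an intensity trend, and had 3 residual and 3.11 prior df. P-values are two-sided, adjusted by Benjamini-Hochberg over 15490 genes and called below 0.05. An exact permutation test of 2 against 2 libraries cannot go below p = 0.333. The procedure was tested on simulated data.

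The comparison, 48 gene lists and tests were chosen with earlier results of these data known. Named genes were every called gene; in each direction the 10 with the smallest p and the 10 with the largest fold change among genes within 2-fold in both groups, each with at least 5 TPM in the higher group and no overlap; up to 3 genes of smallest p per list; and Gdf9, Amh and Igkc. Other list members were named after their values were seen, and a few genes that the rule names are not reported here. List medians have no test. Alternatives were another pseudocount (0.1), all genes unfiltered, a minimum of 5 TPM, FPKM, centring, quantile-normalized values, rescaled TPM, the 4 PBS libraries alone, no trend, a replicate block and each library left out.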

Additional observations from a re-analysis of the deposited data

How the results depend on the processing

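The count of 6 called genes became 7 with a pseudocount of 0.1, 6 with a filter at 5 TPM and 5 with TPM rescaled without immunoglobulin, globin and mitochondrial genes. It became 1 without a filter or without the intensity trend, 11 as FPKM, 23 after median centring, 17 after quantile normalization and 0 with the 4 PBS libraries alone by limma, where 2038 genes had an unadjusted p below 0.05. With each library left out in turn it ranged from 0 to 1300: 1300 without young 1, 14 without young 2, and 0 without either old PBS library or either MIT-001 library. All 6 genes were among those called with the pseudocount of 0.1, the filter at 5 TPM, centring and quantile normalization and without young 1. The count at an unadjusted p below 0.05, 2990, became 1942 as FPKM and 1944 after centring, and ranged from 769 without old 2 to 5462 without young 1. Replicate numbers pair no animals, and with 2 numbers the check of pairing cannot decide: the differences between replicates 1 and 2 correlated at 0.00083 between the PBS groups, 0.252 between young PBS and MIT-001 and 0.174 between old PBS and MIT-001. With the replicate block 1 gene was called, H2-Eb1, and 2863 had an unadjusted p below 0.05. Of 2472 values of 156 named genes over 16 alternatives, 2334 kept direction and side of the threshold, 86 passed it and 48 no longer did. The remaining 4 turned sign: with libraries left out Tnfaip6 ranged from -1.45 without young 2 to 0.138 without young 1, Adamts1 from -0.234 without young 2 to 1.03 without young 1 and Prlr from -0.234 without young 1 to 1.83 without young 2, and Sdhd stood at -0.005 after centring, and the cause was not tested. None of the 4 was called. The 48 values that no longer passed all belong to the 6 called genes, the only ones with a call to lose. The 2334 kept values are mostly those of genes not called in either setting and do not measure how stable the calls are. Genes near the filter have few reads behind them, and their differences may not be detectable with 2 libraries a group.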

Other observations

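Genes listed at 0 in both libraries of a group and at 5 TPM or more in both libraries of the other were counted after the values were seen. There were 5 at 0 in both old libraries and 0 at 0 in both young ones. The 5 were the mast cell proteases Mcpt4 and Tpsb2, the class Ib gene H2-Q2, the immunoglobulin joining segment Igkj1 and Fxyd4, a regulator of the sodium pump. Fxyd4 stood at 6.42 and 23.8 TPM in the young libraries and Igkj1 at 85.9 and 14.1 TPM. In the libraries labelled MIT-001, from mice of the same labelled age as the old PBS libraries, H2-Q2 stood at 6.99 and 4.55 TPM, Mcpt4 at 19.7 and 0.513 TPM, Tpsb2 at 13.8 and 0.433 TPM, Igkj1 at 135 and 0.332 TPM and Fxyd4 at 87.0 and 0.538 TPM, so all 5 were above 0 in both.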
